A study of Mus musculus with 4 samples.

Results

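The 10 genes Fos, Fosb, Jun, Junb, Egr1, Atf3, Nr4a1, Klf4, Ier2 and Dusp1 were described across WT and VISTA KO cells of bone marrow origin from MC38 tumors. They were taken by symbol, each symbol matched 1 of the 32285 genes of both matrices, and none was chosen for its level. MC38 is a mouse colon carcinoma line, and VISTA is an inhibitory immune checkpoint protein encoded by Vsir. Per the labels, bone marrow of WT or VISTA KO donors was used to make chimeras, all on a C57/BL6 background, which were given MC38 cells after 6 weeks and whose tumors were taken at a diameter of 9 to 10 mm. Tumors were pooled, an antibody to either CD45 allele separated WT from KO cells, viable CD11b+ cells were sorted, and 10000 cells of each kind were loaded on a 10x Genomics chip. The 4 samples formed 4 groups of 1: a gene expression library and a library of 3 antibody tags (CD11c, Ly6G and Ly6C) for WT and for VISTA KO. The sources used here do not say whether both kinds of cells grew in the same mice. With 1 library of pooled tumors per group there was no test between WT and VISTA KO. The VISTA genotype, the CD45 allele used to separate the cells, with any DNA linked to it, and the handling of the 2 libraries cannot be told apart.

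Immediate early genes are transcribed within minutes of a signal, without new protein synthesis, and their RNA decays fast. Growth factors, adhesion, inflammatory signals and mechanical or heat stress act on them through MAP kinases and the factors SRF, ELK and CREB, so that enzymatic digestion and sorting of a tissue can raise them as well as the state of a cell in the tissue. Fos, Fosb, Jun, Junb and Atf3 encode bZIP proteins of the AP-1 and ATF family, Egr1 and Klf4 encode zinc finger factors, Nr4a1 encodes an orphan nuclear receptor, Ier2 encodes a nuclear regulator with no such DNA binding domain, and Dusp1 encodes a phosphatase that switches MAP kinases off.

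Promoters of 8 of the 10 genes (all but Egr1 and Ier2) were matched in a RefSeq table of GRCm38.p6, as the 250 bases before each annotated start. The core TGACG of the cAMP response element, read on both strands, lay in 7 of these 8 (all but Jun), against 17.77% of 32851 promoters of the same length. The full element TGACGTCA lay in 1 of 8, that of Dusp1, against 1.546%, and it contains the core. The EGR site GCGNGGGCG, on both strands, lay in the promoters of Fosb, Nr4a1 and Klf4, against 4.697%. The TATA box TATAAA, on the gene's own strand, lay in that of Fos, against 7.592%. Neither the AP-1 site TGANTCA (6.749% of promoters) nor the CArG box (1.467%) lay in the windows of the 8 genes. The promoters of Fos and Dusp1, which hold the TATA box and the full element, and those of Fosb, Klf4 and Atf3, the 3 genes with the widest median difference between the libraries within a cell population, read 5′ to 3′ on the gene's strand, with the matched motifs in capitals.
Fos (chr12:85473640-85473889, + strand): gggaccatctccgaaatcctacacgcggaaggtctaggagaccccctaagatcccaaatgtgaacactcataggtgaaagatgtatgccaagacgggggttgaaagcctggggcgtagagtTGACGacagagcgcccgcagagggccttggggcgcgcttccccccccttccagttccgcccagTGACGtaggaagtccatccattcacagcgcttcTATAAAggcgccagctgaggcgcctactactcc
Fosb (chr7:19310046-19310295, - strand): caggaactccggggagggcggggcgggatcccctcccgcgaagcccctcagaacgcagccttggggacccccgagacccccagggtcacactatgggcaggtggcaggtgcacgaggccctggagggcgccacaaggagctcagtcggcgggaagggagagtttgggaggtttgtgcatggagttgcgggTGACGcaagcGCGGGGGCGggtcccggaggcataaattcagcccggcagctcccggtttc
Klf4 (chr4:55532476-55532725, - strand): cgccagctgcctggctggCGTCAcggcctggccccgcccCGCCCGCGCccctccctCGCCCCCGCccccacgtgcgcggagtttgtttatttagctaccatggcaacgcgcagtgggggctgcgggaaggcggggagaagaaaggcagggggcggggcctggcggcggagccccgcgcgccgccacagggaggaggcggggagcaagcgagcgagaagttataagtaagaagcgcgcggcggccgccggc
Atf3 (chr1:191183334-191183583, - strand): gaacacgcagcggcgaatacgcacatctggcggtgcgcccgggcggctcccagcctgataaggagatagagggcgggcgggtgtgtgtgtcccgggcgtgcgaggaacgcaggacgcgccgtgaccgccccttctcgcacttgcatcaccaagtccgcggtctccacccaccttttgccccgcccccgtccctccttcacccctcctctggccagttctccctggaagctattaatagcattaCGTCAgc
Dusp1 (chr17:26508473-26508722, - strand): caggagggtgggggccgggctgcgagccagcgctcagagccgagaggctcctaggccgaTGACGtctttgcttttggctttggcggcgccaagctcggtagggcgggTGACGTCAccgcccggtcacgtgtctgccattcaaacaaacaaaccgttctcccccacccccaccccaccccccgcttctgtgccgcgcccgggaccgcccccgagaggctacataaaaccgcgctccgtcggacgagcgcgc

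In the promoter of Fos the 2 cores began 129 and 66 bases before the start and the TATA box 33 bases before it. In that of Fosb the core began 60 bases and the EGR site 50 bases before the start. The Klf4 window held a core 232 bases and 2 EGR sites 211 and 194 bases before the start, and the Atf3 window a core 7 bases before it. The full element of Dusp1 began 143 bases before the start. These matches describe letters, and binding was not measured.

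The WT matrix held 10241 cell barcodes with 61753547 unique molecular identifiers (UMIs, which count captured RNA molecules), and the VISTA KO matrix held 15257 barcodes with 80366761 UMIs. Both hold more barcodes than the 10000 cells that the labels give as loaded. Filters left 10193 and 15140 cells, whose median UMI counts were 4692 and 4212.5, and 47 barcode sequences occurred in both libraries. Vsir, the targeted gene, stood at 136.5 counts per 1000000 UMIs (CPM) in the WT library and at 46.2 in the library labelled VISTA KO, and it was lower in the latter in 12 of 12 cell populations compared. Which part of Vsir was deleted is not given in the sources read here, so reads of its remaining part cannot be told apart from reads of an intact gene. Clustering without the early genes gave 18 clusters. Named by RNA markers and called "-like" for that reason, they held monocyte-like cells (2971 in WT, 2500 in VISTA KO), macrophage-like cells (998 and 2743), cDC2-like cells (518 and 757), NK cell-like cells (508 and 390) and mature DC-like cells (146 and 212). A cluster with markers of both neutrophils and macrophages (1867 and 686 cells) and a cluster with markers of both NK cells and macrophages (132 and 195) were kept apart, doublets were not removed, and clusters 2, 3, 4, 7 and 10 stayed unnamed. These 12 populations were compared, and neutrophil-like, T cell-like and basophil-like cells, with fewer than 100 cells in a library, were given as levels only. The labels call the sorted cells suppressor cells of the myeloid line, and the NK cell-like and T cell-like cells carry markers outside that line.

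The summed early gene RNA ranged more widely over cell populations than it differed between the libraries within one. UMIs were summed per population and library and given as CPM of that sum, with 95% Poisson intervals that cover counting error only. The 10 genes together took 15943 CPM in neutrophil-like cells of WT (378 cells, interval 15586 to 16306) and 1888 in NK cell-like cells (1816 to 1962). In VISTA KO the same ends of the order stood at 15621 in neutrophil-like cells (75 cells) and at 2392 in NK cell-like cells, next to 2364 in T cell-like cells, whose intervals overlapped. Basophil-like cells came second in both libraries, at 15471 in WT, where the interval overlapped that of neutrophil-like cells, and at 13571 in VISTA KO. Cluster 10 came next, at 9592 and 10234. Monocyte-like cells stood at 7032 and 7646, the mixed neutrophil and macrophage cluster at 7301 and 7321, cDC2-like cells at 4459 and 5804, macrophage-like cells at 4002 and 4203, and mature DC-like cells at 2522 and 3255. Thus for the sum of the 10 genes, granulocytes were at the top, monocyte-like cells lay above macrophage-like cells, and mature DC-like and lymphoid cells lay lowest, in both libraries. Not every gene followed the sum. In neutrophil-like cells of WT, Klf4 stood at 35.8 CPM against a median of 160.7 over the 12 compared populations, and Jun at 534.7 against 745.0. Neutrophil-like cells were shallow (median UMI counts of 1201.5 and 1378), and the part of depth in their place in the order was not tested.

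**Figure D1:**
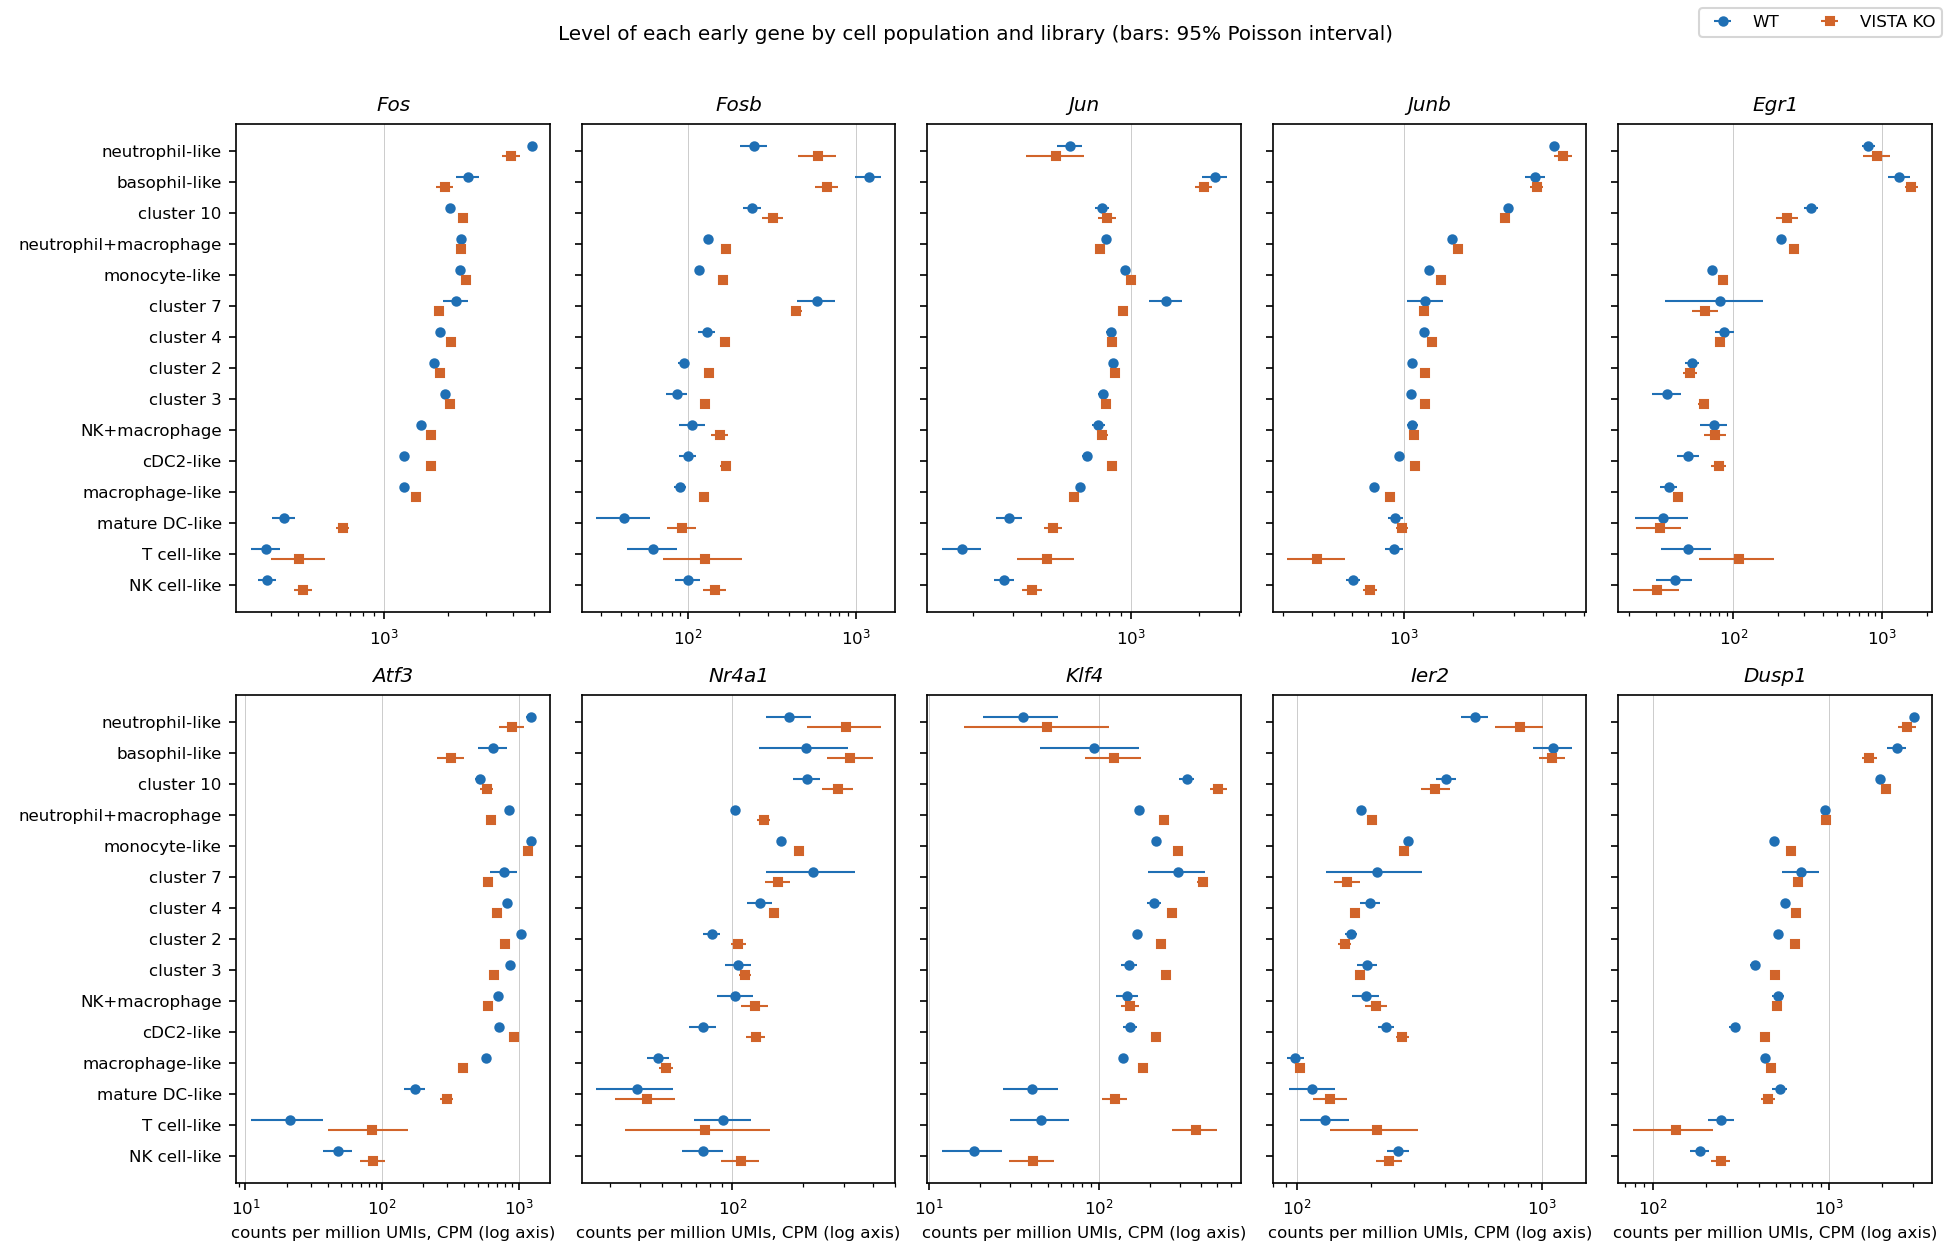
Level of each early gene in 15 cell populations (rows) in CPM on a log axis, with WT as blue circles, VISTA KO as orange squares and bars for the 95% Poisson interval. Points of one gene spread widely between rows while the 2 libraries lie close together within most rows, as for Fos, at 2255 and 2418 in monocyte-like cells against 288.1 and 422.3 in NK cell-like cells.

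Over the 12 populations with at least 100 cells in both libraries, Atf3 spanned a 25.7-fold range in WT and a 13.5-fold range in VISTA KO, from NK cell-like to monocyte-like cells. Its median difference between the libraries within a population was 1.31-fold in either direction. Fos spanned 7.98-fold in WT and 5.73-fold in VISTA KO, against 1.13-fold between libraries, and Junb 4.70-fold and 3.82-fold, against 1.11-fold. For the remaining 7 genes too, the range over populations, at least 2.75-fold, was wider than the median difference between libraries, at most 1.41-fold. A range holds the extremes and a median does not, so these are unlike measures. The largest library difference of Klf4 was a log2 ratio of 1.60 in size, where its range was 18.0-fold in WT and 12.4-fold in VISTA KO. For Fosb it was 1.11, with ranges of 14.1-fold and 4.81-fold.

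Of the 120 ratios of VISTA KO over WT (10 genes in 12 populations), 13 were at least 1.5-fold higher, 1 was at least 1.5-fold lower and 106 were neither. Among all gene ratios with at least 100 UMIs in these populations, 4.71% were that much higher and 2.43% that much lower. Some member ratios had fewer UMIs, down to 60. From 20 UMIs, which all 120 reached, the shares of all gene ratios were 9.44% and 6.65%, against 10.8% and 0.83% of the members' ratios. The members' median log2 ratio was 0.18, and 87 of the 120 lay above 0. The medians over all genes with at least 100 UMIs ranged from -0.07 to 0.07 by population. The median size of the members' ratios in either direction was 0.24. All intervals of a ratio given here are 95% conditional binomial intervals and cover counting error only. Of the 13 higher ratios, 10 were in mature DC-like, cDC2-like and NK cell-like cells. Cluster 3 held 2, where 5.89% of all genes were that much higher, and cluster 10 held 1, against 3.00%. In the monocyte-like, macrophage-like and mixed neutrophil and macrophage populations, 0 of 10 genes passed 1.5-fold, where 6.70%, 5.95% and 5.72% of all genes did in either direction. No gene of the 10 passed it in clusters 2 and 4 and in the mixed NK cell and macrophage cluster either, against 4.98%, 7.56% and 5.73% of all genes. With a size of 2-fold in place of 1.5-fold, 3 ratios were higher and 0 lower.

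**Figure D2:**
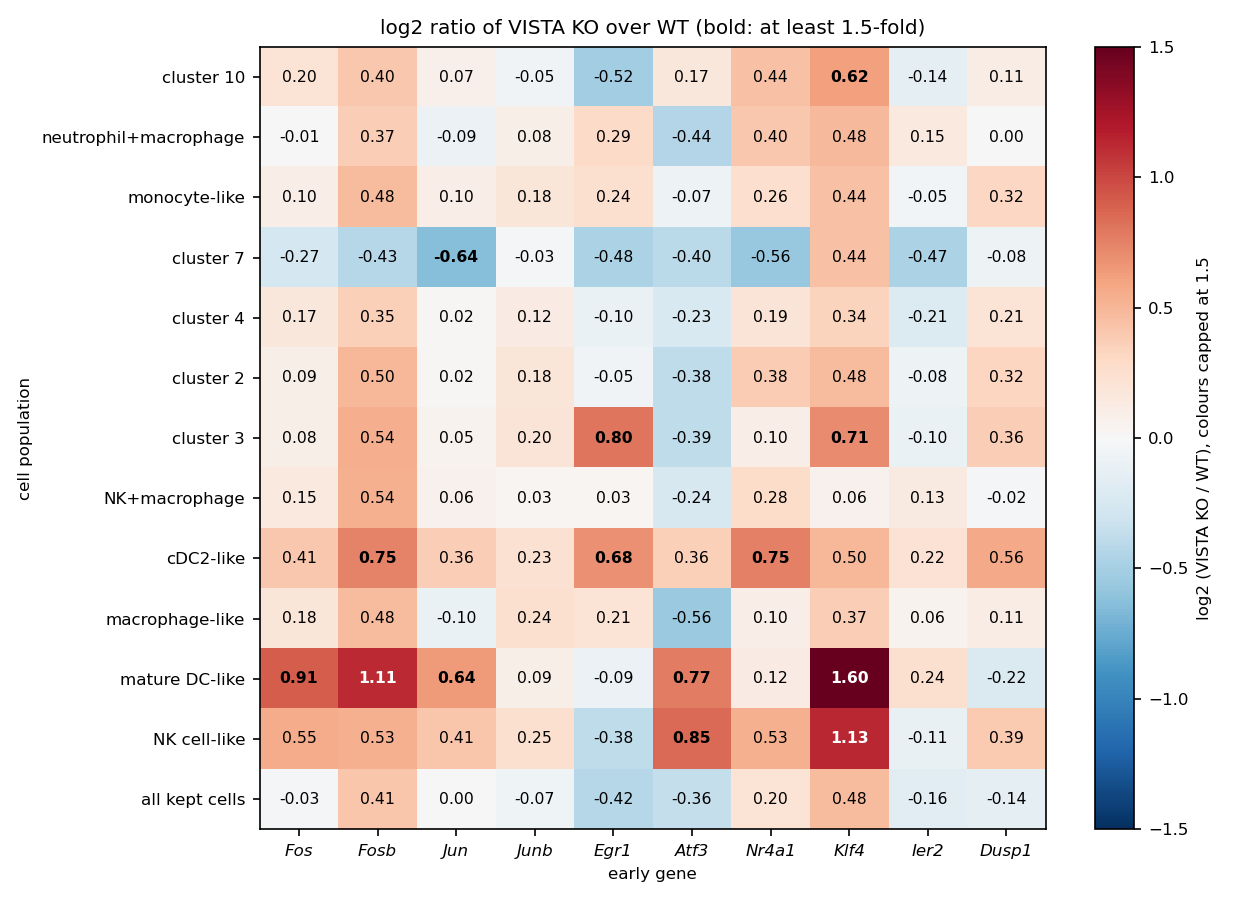
log2 ratio of VISTA KO over WT for the 10 early genes (columns) in 12 cell populations and in all kept cells (rows), with red for higher and blue for lower in VISTA KO and bold figures for ratios of at least 1.5-fold. The Klf4 column is red in all 12 populations, the Atf3 column is blue in 8, and the bold figures gather in the rows of cDC2-like, mature DC-like and NK cell-like cells.

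Other measures moved with the library in the same populations. Malat1, a nuclear RNA that marks nuclear content, was higher in VISTA KO in 12 of 12 populations, and the median mitochondrial share was higher in 11 of 12. Summed neutrophil marker RNA was lower in VISTA KO in 12 of 12 populations and summed macrophage marker RNA was higher in 12 of 12. Their part in the differences of the early genes was not tested.

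Klf4, a factor of monocyte differentiation, was higher in VISTA KO in 12 of 12 populations, with intervals above 0 in 10. Its level was 216.6 CPM in monocyte-like cells of WT and 293.4 in VISTA KO (log2 ratio 0.44, interval 0.36 to 0.51), and 139.6 and 181.0 in macrophage-like cells (0.37). The lowest log2 ratio was 0.06, in the mixed NK cell and macrophage cluster, and the highest 1.60, in mature DC-like cells, where 30 UMIs in WT stood against 137 in VISTA KO. That ratio was 2.23 with cells weighted equally and 3.01 among cells without a C1q UMI, where 5 UMIs stood against 18. Klf4 passed 1.5-fold in 4 populations, which were mature DC-like (1.60) and NK cell-like cells (1.13, with 25 against 44 UMIs) and clusters 3 (0.71) and 10 (0.62). Within the single clusters of the monocyte-like and macrophage-like classes its log2 ratios were 0.57, 0.45 and -0.02 (clusters 1, 5 and 12) and 0.44 and -0.03 (clusters 6 and 8). Most of the monocyte-like cells were in cluster 1 in WT (1654 of 2971) and in cluster 5 in VISTA KO (1277 of 2500). Of the macrophage-like cells, cluster 6 held 772 of 998 in WT and 1393 of 2743 in VISTA KO. With each library clustered alone, the monocyte-like ratio of Klf4 was 0.62 and the macrophage-like ratio 0.78, both past 1.5-fold, and the NK cell-like ratio was 2.40. Classes from 2 separate clusterings need not hold like cells, here and wherever such ratios are given below. Summed macrophage marker RNA was then 1781 CPM in WT and 4398 in VISTA KO in the monocyte-like class, and 466.9 and 6746 in the NK cell-like class. The macrophage-like class held 945 and 5175 cells.

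Fosb, an AP-1 subunit whose product resembles that of Fos, was higher in VISTA KO in 11 of 12 populations, with intervals above 0 in those 11. In monocyte-like cells it stood at 115.5 CPM in WT against 160.5 in VISTA KO (log2 ratio 0.48, interval 0.37 to 0.58). Values of 89.3 and 124.6 in macrophage-like cells gave a ratio of the same size (0.48). Within the single clusters of these classes its log2 ratios were 0.70, 0.33 and 0.50 (clusters 1, 5 and 12) and 0.53 and 0.16 (clusters 6 and 8). Cluster 1 was thus past 1.5-fold, and the interval of cluster 8 (-0.07 to 0.41) held 0. Of the whole populations, Fosb passed 1.5-fold in cDC2-like cells, at 99.6 and 167.2 CPM (0.75), and in mature DC-like cells (1.11, 31 against 101 UMIs). Cluster 7 was the exception, with 585.9 and 442.5 CPM (-0.43, interval -0.79 to 0.01). Fosb was highest of the 12 populations in that cluster in both libraries. Among the 12 compared populations, Fosb thus differed between the libraries in one direction outside cluster 7, mostly by less than 1.5-fold. Of those given as levels only, basophil-like cells ran the other way, with 1194 CPM for WT against 670.3 for VISTA KO. Fosb was higher in VISTA KO in neutrophil-like (246.3 and 592.5) and T cell-like cells (61.6 and 126.6). With each library clustered alone, the ratio was 0.66 in monocyte-like and 0.82 in macrophage-like cells, both past 1.5-fold.

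Atf3, a stress-induced bZIP factor that restrains inflammatory genes, ran the other way in most populations. It was lower in VISTA KO in 8 of 12, with intervals below 0 in those 8, and higher in the other 4, with intervals above 0 in 3. Macrophage-like cells had 574.5 CPM in WT against 390.9 in VISTA KO (log2 ratio -0.56, interval -0.61 to -0.50), just short of 1.5-fold. Both of their clusters showed it, with -0.39 in cluster 6 and -0.78 in cluster 8. In monocyte-like cells, the population with the highest Atf3, the libraries were close, at 1225 and 1164 (-0.07). In cDC2-like cells Atf3 was higher, at 719.5 and 920.7 (0.36), and in mature DC-like cells, at 174.3 and 298.8 (0.77), and in NK cell-like cells, at 47.6 and 86.1 (0.85, 65 against 93 UMIs), it passed 1.5-fold. With the early genes allowed among the clustering genes, the macrophage-like ratio was -0.83, past 1.5-fold, and the mature DC-like ratio was 0.44, no longer past it.

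Fos, the partner of Jun proteins in AP-1, was higher in VISTA KO in 10 of 12 populations by small amounts, with a median log2 ratio of 0.16. It stood at 2255 CPM in WT against 2418 in VISTA KO in monocyte-like cells (0.10, interval 0.08 to 0.12) and at 1248 and 1412 in macrophage-like cells (0.18). Mature DC-like cells differed more, with 343.3 and 645.0 (0.91, interval 0.70 to 1.12). Jun, which can pair with itself or with Fos, was near equal in most populations, with a median log2 ratio of 0.06 and 934.4 against 999.3 CPM in monocyte-like cells (0.10). Its 2 ratios past 1.5-fold had opposite signs, 0.64 in mature DC-like cells (288.3 and 451.0) and -0.64 in cluster 7 (1424 and 917.4). With the early genes allowed in the clustering, the mature DC-like ratio of Jun was 0.54 and no longer passed. Junb, an AP-1 subunit that often opposes Jun, had log2 ratios from -0.05 in cluster 10 to 0.25 in NK cell-like cells. With each library clustered alone it passed 1.5-fold in macrophage-like (0.59) and NK cell-like cells (0.66).

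Egr1, a zinc finger factor induced through SRF and MAP kinases, had no common direction, with 6 ratios above and 6 below 0. It was 72.0 CPM in WT against 85.3 in VISTA KO in monocyte-like cells (log2 ratio 0.24) and 35.8 and 63.1 in cluster 3 (0.80, 82 against 607 UMIs). In cluster 10, where Egr1 was highest of the 12 populations in WT, it was 332.4 and 229.9 (-0.52, interval -0.83 to -0.24). Cluster 10 also differed in neutrophil content, with 4619 against 1946 CPM of summed neutrophil marker RNA and a median of 73 against 11 Ly6G tag UMIs per cell, whose part was not tested. In cDC2-like cells Egr1 passed 1.5-fold (0.68, 146 against 302 UMIs), but not among the cells without a C1q UMI (0.26, interval -0.28 to 0.76). Among the 6 ratios below 0, that of mature DC-like cells (-0.09) became 0.52 at a finer clustering, 0.80 with each library clustered alone and 0.84 without C1q cells, and that of NK cell-like cells (-0.38) became 0.50 with each library clustered alone.

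Nr4a1, a nuclear receptor that is induced in monocytes and by antigen receptor signals in lymphocytes, was higher in VISTA KO in 11 of 12 populations, with intervals above 0 in 7. It passed 1.5-fold in cDC2-like cells only, at 74.4 and 125.9 CPM (0.75, interval 0.52 to 1.00). That ratio was 0.56 with the early genes allowed in the clustering and 0.46 with each library clustered alone, both short of 1.5-fold. In monocyte-like cells Nr4a1 stood at 161.7 and 193.0 (0.26), and in macrophage-like cells at 48.1 and 51.8 (0.10), but at a ratio of 1.18 in macrophage-like cells when each library was clustered alone. Ier2 was within 1.5-fold in all 12 populations, at 283.0 and 274.0 in monocyte-like cells (-0.05), but passed it in macrophage-like cells with each library clustered alone (0.59 in place of 0.06). Dusp1, the feedback phosphatase, was higher in VISTA KO in 9 of 12 populations and within 1.5-fold in all 12, with 486.2 and 605.1 CPM in monocyte-like cells (0.32) and 292.0 and 431.5 in cDC2-like cells (0.56). In cDC2-like cells it passed 1.5-fold when cells were weighted equally (0.66) and among cells without a C1q UMI (0.62).

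A few populations held most of the ratios past 1.5-fold. In cDC2-like cells 10 of 10 genes were higher in VISTA KO and 3 passed 1.5-fold, where 5.22% of all genes were that much higher, and the members' median log2 ratio was 0.45 against 0.04 over all genes. In mature DC-like cells 8 of 10 were higher and 5 passed, against 7.75% of all genes, with a median of 0.44. In NK cell-like cells 8 of 10 were higher and 2 passed, against 4.77%, with a median of 0.47. The fewest UMIs of a member over both libraries were 448 in cDC2-like, 60 in mature DC-like and 69 in NK cell-like cells, and 8 of the 10 genes reached 100 UMIs in each of the latter 2. Among these 8, 5 passed in mature DC-like and 1, Atf3, in NK cell-like cells. With each library clustered alone, 7 of 10 genes passed in NK cell-like cells (508 and 597 cells) and 6 of 10 in macrophage-like cells (945 and 5175 cells). Those classes held other cells, since the summed macrophage marker RNA was then 466.9 and 6746 CPM in the NK cell-like and 25210 and 19689 CPM in the macrophage-like class.

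In the same populations macrophage marker RNA was also higher in VISTA KO. The summed level of 14 macrophage markers was 728.7 CPM in WT against 1594 in VISTA KO in cDC2-like cells, where 12 of 14 were at least 1.5-fold higher. It was 733.5 and 2392 in mature DC-like cells (12 of 14 higher, Folr2 at 0 in WT), 551.9 and 1589 in NK cell-like cells (10 of 14) and 1910 and 3245 in monocyte-like cells (6 of 14). In macrophage-like cells themselves it was 25455 and 26298. Among cells with no UMI of C1qa, C1qb or C1qc, a comparison added after the data were seen, the members' median log2 ratio was 0.48 in cDC2-like (306 and 190 cells), 0.60 in NK cell-like (384 and 121) and 0.69 in mature DC-like cells (93 and 37). The medians over all cells of these populations were 0.45, 0.47 and 0.44. In monocyte-like cells without a C1q UMI (1599 and 603) the median was 0.18, where it was 0.21 over all cells. Some other populations moved further. Among such cells the median was -0.12 in cluster 10 (108 and 61 cells), where it was 0.14 over all cells. It was -0.95 in cluster 7 (37 and 270), where it was -0.41. In the mixed NK cell and macrophage cluster (26 and 13) it was 0.53, where it was 0.06. Some populations kept few cells, such as 16 and 4 macrophage-like cells. The summed macrophage markers still differed among cells without a C1q UMI, at 391.3 and 896.7 CPM in cDC2-like cells, at 312.8 and 992.9 in those like NK cells, and at 210.6 and 734.3 in mature DC-like cells, and the part of macrophage RNA was not tested.

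Cluster 7 was the only population of the 12 in which most of the 10 genes were lower in VISTA KO. There 9 of 10 were below 0, the median log2 ratio was -0.41 against -0.07 over all genes, and 1 gene, Jun, passed 1.5-fold, where 13.3% of all genes were that much lower and 21.9% passed in either direction. The cluster held shallow cells (median UMI counts of 737.5 in WT, 832 in VISTA KO), with a median mitochondrial share of 4.43% and 3.77%, and Malat1 as a leading gene. Its 106 WT cells gave 762 UMIs of the 10 genes in all, of which 8 were of Egr1, 21 of Ier2 and 22 of Nr4a1. The part of depth and RNA quality in its ratios was not tested.

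Pooled over all kept cells, the picture differed from that within populations. Egr1 was 123.1 CPM in WT against 91.7 in VISTA KO (log2 ratio -0.42) and Dusp1 was 676.7 and 613.8 (-0.14), and 4 of 10 genes were above 0, with a median of -0.05. None passed 1.5-fold, where 8.62% of all genes did. With cells weighted equally Egr1 passed it, at -0.60. With every cluster weighted equally the median over the 10 genes was 0.14 and the Egr1 ratio was 0.07. The libraries differed in the cells they held, since the neutrophil-like and mixed neutrophil and macrophage populations, both high in Egr1 and Dusp1, had 378 and 1867 cells in WT and 75 and 686 in VISTA KO. A pooled level in a bulk sample would not tell such a difference from a change in RNA per cell.

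Monocyte-like cells differed at most depths, with an exception among the shallowest. The 10 genes together took 6560 CPM in WT against 7034 in VISTA KO among cells of 2000 to 4000 UMIs, 7156 and 7953 among those of 4000 to 8000, and 7100 and 7898 above 8000. Among the 228 and 270 cells of 500 to 2000 UMIs they took 7954 and 7887, with overlapping intervals, and there Klf4 was lower in VISTA KO (487.9 and 355.0), as was Nr4a1 (457.6 and 275.8). In each of 4 ranges of the mitochondrial share the sum was higher in VISTA KO, with 7056 against 6461 where the share was above 2%.

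Counted per cell, the libraries differed by small amounts. Cells were thinned to 1000 UMIs, and shallower cells were left out (68 of WT and 106 of VISTA KO in the monocyte-like class). A monocyte-like cell then held a UMI of 3.26 of the 10 genes on average in WT and 3.49 in VISTA KO, against 5.72 and 5.86 at full depth. At least 5 of the 10 were found in 26.4% of WT cells (exact binomial 95% interval 24.8% to 28.0%) and in 29.7% of VISTA KO cells (27.8% to 31.5%), with intervals that overlapped slightly. The thinned means were 2.36 and 2.49 of the 10 genes in macrophage-like, 2.47 and 3.09 in cDC2-like and 1.42 and 1.89 in NK cell-like cells. None was found in 27.9% of NK cell-like cells of WT (24.0% to 32.1%) and in 18.3% of VISTA KO (14.5% to 22.6%), with a full-depth median of 2198.5 and 2257.5 UMIs. For cDC2-like cells these shares were 13.8% (10.9% to 17.1%) and 9.0% (7.0% to 11.3%), and for macrophage-like cells 13.6% and 12.1%, with overlapping intervals in both. At full depth the shares with none were 10.6% and 5.13% in NK cell-like and 1.35% and 0.26% in cDC2-like cells. In mature DC-like cells the thinned shares with none were 18.7% and 14%, with overlapping intervals, and the full-depth shares ran the other way, at 2.05% and 3.30%. At least 5 of the 10 were found in 5.04% and 4.5% of the thinned mature DC-like cells. No population here is known to lack these genes, so the share that free RNA gives could not be read from one.

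**Figure D3:**
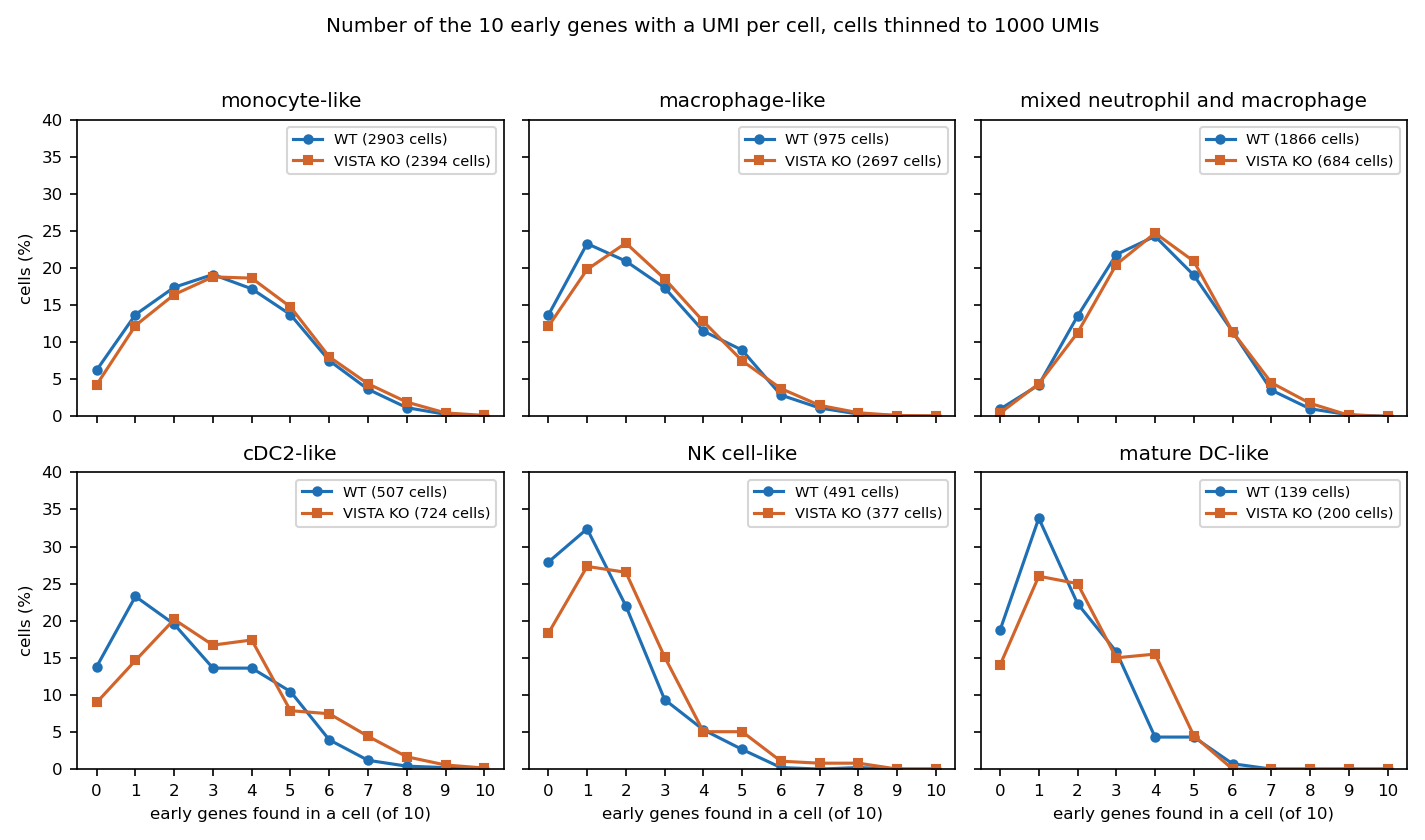
Share of cells (vertical axis, percent) by the number of the 10 early genes with a UMI after thinning to 1000 UMIs (horizontal axis), for 6 populations, with WT as blue circles and VISTA KO as orange squares. The curves of the 2 libraries lie nearly on each other in monocyte-like and macrophage-like cells. For cDC2-like and NK cell-like cells the VISTA KO curve is shifted toward more genes. Cells holding none were 8.98% in VISTA KO against 13.8% in WT for cDC2-like cells, and 18.3% against 27.9% for NK cell-like cells.

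Within the monocyte-like class the early genes varied together from cell to cell, in both libraries alike. Over 45 pairs of the 10 genes, Pearson's r of log-scaled counts had a median of 0.26 in WT (2971 cells) and 0.26 in VISTA KO (2500 cells). The highest was Fos with Dusp1 in WT (0.54, against 0.50 in VISTA KO), and Fos with Atf3 stood at 0.52 and 0.50. The lowest in both was Jun with Ier2 (0.11 and 0.08). In thinned cells all 45 pairs were found together more often than the product of their shares in both libraries. These correlations share each cell's depth, which itself had an r of 0.15 in WT and 0.21 in VISTA KO with the mean of the 10 genes, and they are descriptions.

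Across the 30 sums of 15 populations in 2 libraries, Fos and Junb followed the other members most closely (r = 0.85 each) and Klf4 least (0.24), followed by Atf3 (0.58). Klf4 was low, at 35.8 CPM, in neutrophil-like cells of WT, where the sum of the 10 genes was highest. In cluster 10 of WT it was 330.6, its highest level among the 12 compared populations. Of 11258 genes outside the lists, the 5 whose levels over these sums were most like the members' mean were Nlrp3 (0.95), Osm (0.92), Lilr4b (0.92), Lilrb4a (0.91) and Rgs2 (0.91). From cell to cell in the monocyte-like class, Osm, an interleukin-6 family cytokine, came first in both libraries (0.46 and 0.45), and Cd14, Pim1 and Cdkn1a were also among the first 5 in both. The sums share libraries and depth, so that no test was made.

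Related gene lists differed in how far they leaned one way. Members with at least 20 UMIs in a population were counted, and ratios were added over the 12 populations. Of all gene ratios from 20 UMIs, 9.44% were at least 1.5-fold higher and 6.65% lower. Of 133 ratios of other AP-1 and ATF subunits, 7 were that much higher (5.26%) and 6 lower (4.51%), and Jund was below 0 in 10 of 12 populations, with -0.38 in macrophage-like cells. Of 250 ratios of other early response factors, 43 were higher (17.2%) and 6 lower (2.4%). Klf10, a TGF-beta inducible factor, was higher in VISTA KO in 12 of 12 populations, with log2 ratios from 0.57 to 1.24 in 11 of them and 1 against 170 UMIs in cluster 7. Btg2, an antiproliferative gene, was above 0 in 12 of 12, from 0.03 to 1.02. In monocyte-like cells Btg2 was 472.2 CPM in WT against 844.7 in VISTA KO (0.84) and Klf10 26.9 and 45.4 (0.76). The list's median was above 0 in 11 of 12 populations, as the median over all genes from 20 UMIs was in 10, and it lay above that all-gene median in 10.

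MAP kinase phosphatases and mRNA decay factors, which end the response, had 12 ratios higher (5.69%) and 20 lower (9.48%) of 211. Dusp2 was higher in monocyte-like cells (18.1 and 33.0 CPM, 0.87), Dusp5 was lower in macrophage-like cells (37.0 and 21.4, -0.79), and Zfp36l2 was higher in both (0.50 and 0.49). The kinases and SRF or CREB regulators upstream had 15 higher (5.79%) and 8 lower (3.09%) of 259, with a median between -0.15 and 0.20 in every population. Targets of NF-kappaB had 33 higher (11.5%) and 13 lower (4.55%) of 286 and a median above 0 in 12 of 12 populations, above that of all genes in 11. In macrophage-like cells Tnfaip2 was higher (45.7 and 107.9, 1.24) while the chemokine genes Ccl4 (616.5 and 378.3, -0.70) and Cxcl2 (348.8 and 210.7, -0.73) were lower, and Cxcl2 was lower in monocyte-like cells by the same amount (-0.73).

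Heat shock and dissociation stress genes had 33 ratios higher (14.9%) and 6 lower (2.71%) of 221, against 9.44% and 6.65% of all gene ratios from 20 UMIs. Their median lay between -0.19, in macrophage-like cells, and 0.16. It was above 0 in 9 of 12 populations and above that of all genes in 6. The inducible chaperone genes Hspa1a and Hspa1b were higher in monocyte-like cells of VISTA KO, at 123.1 and 227.1 CPM (0.88) and at 49.2 and 105.3 CPM. In the same cells Hspe1 (204.8 and 160.5 CPM, -0.35) and Hspd1 (73.8 and 56.7, -0.38) were lower. Over all 12 populations Hspa1a was above 0 in 11 and Hspa1b in 9, but Hspe1 in 3 and Hspd1 in 4. In macrophage-like cells Hspb1 was lower (18.9 and 3.14, -2.57) and Hsph1 was lower (20.7 and 13.6, -0.61), while Socs3 was higher (109.0 and 192.6, 0.82), as it was above 0 in 12 of 12 populations. By count the list thus leaned higher in VISTA KO, but by its median it did not differ one way in all populations. Its part in the differences of the 10 genes was not tested.

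**Figure D4:**
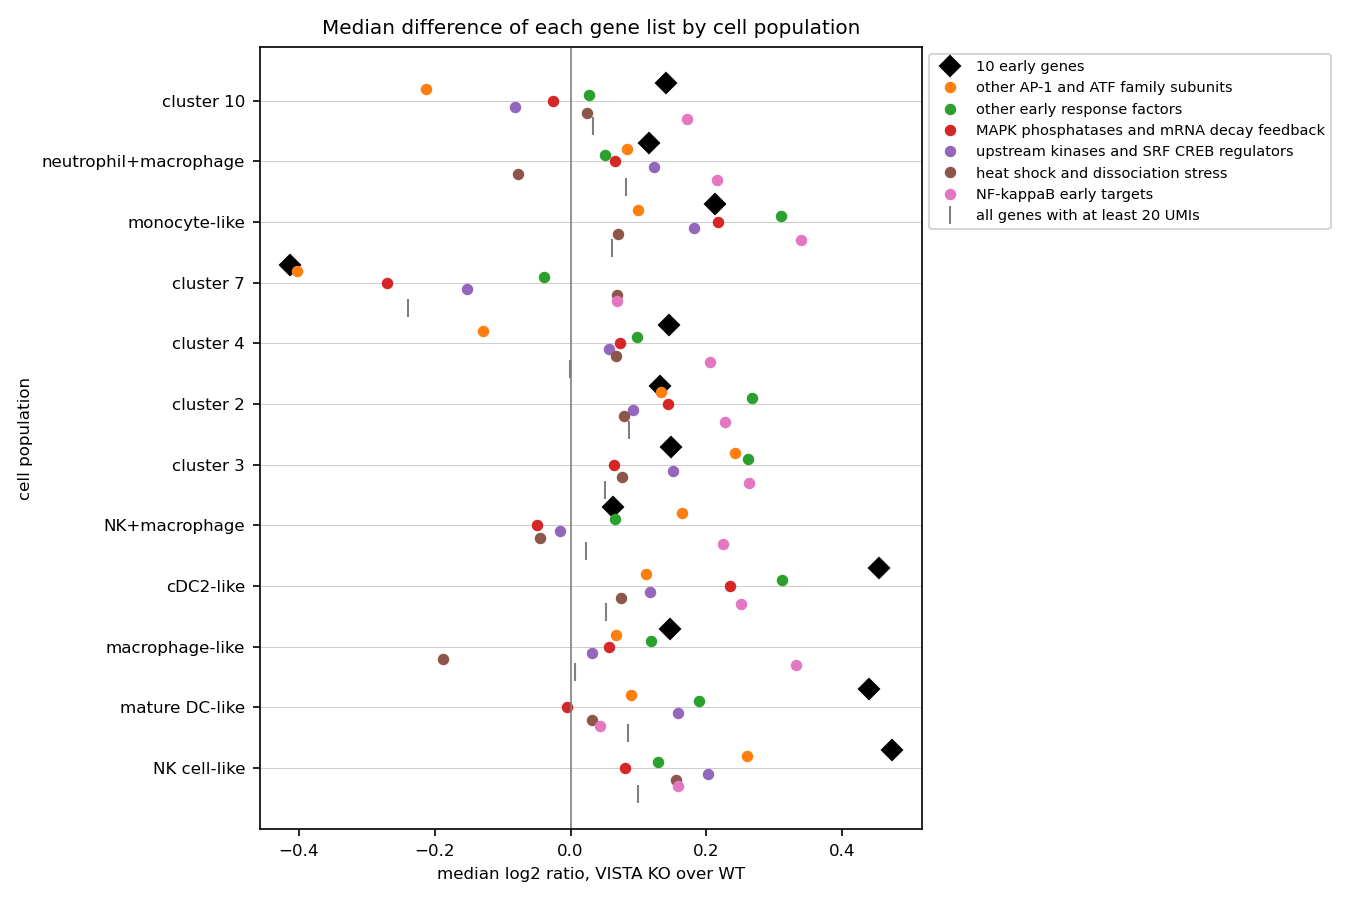
Median log2 ratio of VISTA KO over WT (horizontal axis) for the 10 early genes (black diamonds), 6 related gene lists (coloured circles) and all genes with at least 20 UMIs (grey bars) in 12 cell populations (rows). The diamonds lie to the right of 0 in 11 rows, where the grey bars do so in 10, and reach 0.45, 0.44 and 0.47 in cDC2-like, mature DC-like and NK cell-like cells, and cluster 7 has its diamond at -0.41.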

How the data were processed

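The authors deposited, for the WT and the VISTA KO cells, a matrix of raw UMI counts, whole numbers per gene and antibody tag for each barcode. Cell Ranger 5.0.0 wrote them, per the file headers. The genome build mm10 and Seurat 4.0 are named per the submitters' processing notes, and neither the role of Seurat nor the settings of cell calling were found in the labels. The 10 genes and all gene lists were chosen with earlier results of these data known.

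Cells with at least 200 genes, 500 UMIs and at most 10% mitochondrial UMIs were kept (99.5% of WT and 99.2% of VISTA KO barcodes). No doublet caller was used. Cells of both libraries were scaled to 10000 counts, log-transformed and clustered together with scanpy 1.11.5 and leidenalg 0.10.2 (2000 variable genes per library, 30 principal components, 15 neighbours, resolution 1), leaving out Vsir and every listed gene. Clusters were named from fixed marker lists, by thresholds set after the clusters were seen: at least 3 markers 1.5-fold above the other cells and in 20% of cells. UMI counts were summed per population and library, and log2 ratios used a pseudocount of 1 UMI. Populations with at least 100 cells in each library were compared, and genes with at least 100 UMIs over both libraries formed the background. With 1 library per group no p-value was computed. All 10 genes are reported in every population. Of each other list, those named are at most the 2 highest and 2 lowest ratios in monocyte-like and macrophage-like cells among genes with at least 100 UMIs, and the genes most like the 10 are the 5 with the highest correlation.

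The ratio was tested on simulated counts. With 8137 genes drawn as in monocyte-like cells, 59 of 63 genes changed 2-fold and 24 of 7937 unchanged genes passed 1.5-fold, and intervals held the true ratio for 95.5% of genes. With 3231 genes drawn as in NK cell-like cells, 55 of 59 and 29 of 3031 passed, and 95.9% were held. These draws hold counting error only. Promoters came from the RefSeq table of GRCm38.p6, the assembly behind mm10. Alternatives were other scalings, filters, weights, pseudocounts, clusterings and size rules.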

Additional observations from a re-analysis of the deposited data

Results flagged for a closer look

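For 3 of the 10 genes the log2 ratio of VISTA KO over WT pointed in opposite directions in 2 populations, by a ratio of at least 5 to 4 each and with counting intervals that left out 0, a criterion chosen after the data were seen. The differences between these populations were not tested, since each group held 1 library. Jun stood at 0.64 in mature DC-like cells (interval 0.41 to 0.88) and at -0.64 in cluster 7 (-0.88 to -0.38). Egr1 stood at 0.80 in cluster 3 (0.48 to 1.17) and at -0.52 in cluster 10 (-0.83 to -0.24). Atf3 stood at 0.85 in NK cell-like cells (0.38 to 1.33) and at -0.56 in macrophage-like cells (-0.61 to -0.50).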

How the results depend on the processing

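No paired analysis was possible because no group held more than 1 gene expression library, and for the same reason no library could be left out. Of 520 alternative values of the 10 ratios in all kept cells and in 6 populations, 406 lay within the counting interval of the reported value and 114 outside it. The sign changed in 25, 30 newly passed 1.5-fold and 5 no longer passed. Cells without a C1q UMI enter these counts in 3 populations only (cDC2-like, NK cell-like and mature DC-like). Elsewhere among such cells Klf4 turned from 0.48 to -0.52 in the mixed neutrophil and macrophage cluster (interval -1.47 to 0.14), and Fosb from 0.48 to -0.23 in 16 and 4 macrophage-like cells (-3.88 to 1.22). The median over the 10 genes in all kept cells, -0.05, was -0.12 with scaling by the median gene ratio, -0.13 with cells weighted equally and 0.14 with clusters weighted equally. In the mixed neutrophil and macrophage cluster it was 0.12, and 0.046 and 0.18 under the first and second of these. With each library clustered alone it was 0.32 in monocyte-like cells in place of 0.21, 0.59 in macrophage-like cells in place of 0.15, and 0.86 in NK cell-like cells in place of 0.47, and with listed genes allowed in the clustering it was -0.066 in macrophage-like cells. The count of 13 higher ratios was 41 at a ratio of 5 to 4 and 3 at 2-fold. The 1 lower ratio became 12 at 5 to 4, 0 at 2-fold, 0 with scaling by the median gene ratio and 2 with cells weighted equally. Genes of monocyte-like cells past 1.5-fold numbered 545 from 100 UMIs and 1304 from 20 UMIs. The excess of early genes found per monocyte-like cell in VISTA KO, 0.23 at 1000 UMIs, was 0.34 at 2000 UMIs. The cause of these shifts was not tested. Counts limit mature DC-like and NK cell-like cells, where the rarest of the 10 genes had 60 and 69 UMIs, and cluster 7, where WT had 8 UMIs of Egr1.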
